A study of Caenorhabditis elegans with 12 samples.

Results

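The interaction of *met-2* and *set-25* loss asks whether losing both H3K9 methyltransferases changed promoter accessibility in muscle differently than the effects of the single losses add up to. It was taken as the log2 difference between the effect of *met-2* loss in muscle without *set-25* and its effect in muscle with *set-25*, that is (*met-2 set-25* minus *set-25*) minus (*met-2* minus WT). The same value is the effect of *set-25* loss in *met-2* muscle minus its effect in WT muscle. A value of 0 means that both losses added up on the log2 scale, and a positive value means that *met-2 set-25* lay above that sum. The contrast was tested at 50716 promoter windows of 1700 bases, out of 50757 such windows in a table of 51519. All 12 ATAC-seq libraries entered, 3 from each of 4 genotypes of C. elegans, namely *met-2 set-25* carrying *met-2*(n4256) III and *set-25*(n5021) III, *set-25*(n5021), *met-2*(n4256), and WT, which the labels give as N2 (Bristol). All libraries come from body-wall muscle of larvae in the L3 stage. According to the methods, the cells were sorted by red fluorescence from an array (gwIs4) in which the *myo-3* promoter drives the reporter, so counts at *myo-3* may include the array. The labels name no reporter.

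ATAC-seq counts cuts by the Tn5 transposase, which reaches DNA in open chromatin more readily than DNA wrapped in nucleosomes. MET-2, the worm homologue of SETDB1, deposits mono- and dimethylation on H3K9, and SET-25 deposits trimethylation. Both act on heterochromatin, which in worms is enriched on the outer arms of autosomes and anchored at the nuclear envelope.

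The 12 column totals lay between 50148450 and 105547683 counts, and the median count of a window was 1479 per library. Between replicates of a genotype the chi-square averaged 3.22 to 8.19 for each window, which is more than sampling alone gives. This does not show that the libraries are independent biological replicates. The labelled growth protocol gives fewer independent replicates than 3, but all libraries were counted as separate. Signal over background was summarised by a signal index, the percent of autosomal counts in the 5% of windows with the highest mean count. It was 8.57, 9.89 and 8.88% in *met-2 set-25* libraries, against 7.22, 7.28 and 7.29% in *set-25*, 8.15, 8.36 and 7.08% in *met-2* single mutants and 7.51, 8.31 and 7.22% in WT. All 3 *met-2 set-25* libraries thus lay above the other libraries, and the interaction of the log2 signal index itself was 0.29. Genotype and signal index cannot be told apart in this design, and the index was also used as a covariate. Promoters are counted in most cells to some extent, and in WT the 16 body-wall muscle genes listed had a median normalized count of 2104, against 1673 for the 11 neuronal, 1738 for the 7 pharyngeal and 1583 for the 14 germline genes and 1511 over all windows. The windows of *met-2* and *set-25* lie at promoters, so they check no deletion. The interaction there was -0.02 (FDR = 0.89) for *met-2* and 0.27 (FDR = 0.14) for *set-25*.

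**Figure D1:**
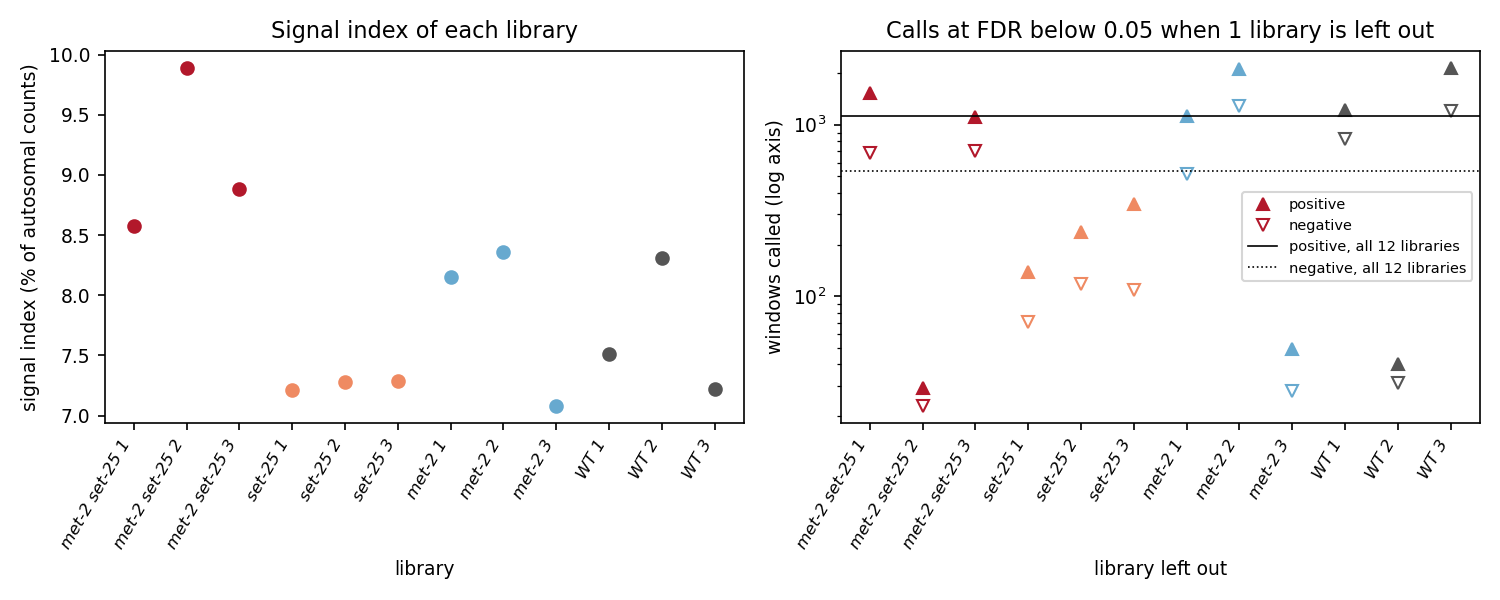
Left, signal index of each library (percent of autosomal counts, axis not from 0), 1 point per library. The 3 *met-2 set-25* libraries lie between 8.57 and 9.89%, above all others. Right, windows called at an FDR below 0.05 (log axis) when the library named below is left out, with lines at the counts of 1125 and 537 from all 12 libraries, where the positive counts range between 29 and 2151.

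Most of the windows called at the stricter threshold had a positive interaction. With edgeR's quasi-likelihood test and an FDR below 0.01, 39 windows had a positive interaction (0.0769% of those tested) and 20 a negative one (0.0394%). At an FDR below 0.05 there were 1125 positive windows (2.22%) and 537 negative windows (1.06%), and an unadjusted p below 0.05 was reached by 4997 and 6848. Neighbouring windows share reads, and windows called at an FDR below 0.01 merged into 28 positive and 13 negative loci. With gaps of up to 1000 bases merged as well, there were 28 and 8. Over all windows the median interaction was -0.05, with quartiles of -0.13 and 0.06 and a median SE of 0.09. With TMM factors this median was -0.01 and the calls at an FDR below 0.05 were split into 1602 positive and 287 negative. DESeq2 called 3537 positive and 55 negative windows at that FDR.

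These counts depended on single libraries. At an FDR below 0.05, the positive windows numbered 29 without *met-2 set-25* replicate 2, 139, 237 and 346 without *set-25* replicates 1, 2 and 3, 2104 and 49 without *met-2* replicates 2 and 3, and 40 and 2151 without WT replicates 2 and 3. The negative windows numbered 23 without *met-2 set-25* replicate 2, 71, 117 and 109 without *set-25* replicates 1, 2 and 3, 1290 and 28 without *met-2* replicates 2 and 3, and 827, 31 and 1196 without WT replicates 1, 2 and 3. At an FDR below 0.01 the positive count was 145 and 16 without *met-2 set-25* replicates 1 and 2, 25 and 19 without *set-25* replicates 1 and 2, 278 and 17 without *met-2* replicates 2 and 3, and 13 and 444 without WT replicates 2 and 3. The negative count was 46 without *met-2* replicate 2, and 31 and 72 without WT replicates 1 and 3. With the signal index as a covariate, 6 positive and 16 negative windows were called at an FDR below 0.01, and 21 of the 59 calls were kept.

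The called windows fell into a small set of loci with large interactions and a larger set of graded differences. Loci with an absolute interaction of at least 0.9 numbered 10, or 5 when windows up to 1000 bases apart were merged. The 10 loci are described first, each by its window with the smallest p value. Each genotype is a separate strain, so a gain or loss of sequence at a locus cannot be told apart from a change in accessibility. Copy number was not tested.

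At *phkb-1*, which encodes the beta subunit of phosphorylase kinase, 4 windows with nearly the same counts covered IV 3220937-3222640 (ce10). The window held normalized counts of 907, 950 and 926 in the *met-2 set-25* libraries, 986, 954 and 944 in *set-25*, 917, 902 and 890 in *met-2* single mutants and only 2, 4 and 3 in WT. WT alone was near 0 here and the mutant genotypes lay close together. The interaction was -8.15 ± 0.21 (SE, FDR = 7.4e-41). The pooled counts of *met-2 set-25* were 293.5 times those of WT (95% counting interval 148.9 to 679.8). The adjoining window of the non-coding RNA Y67D8A.10 held 1068, 972 and 996 in the *met-2 set-25* libraries, 1076, 1035 and 1164 in *set-25*, 1031, 1093 and 975 in *met-2* single mutants, and 274, 252 and 236 in WT. WT was again the genotype that stood apart, and the interaction was -2.14 (FDR = 1.4e-23). Each single mutant already differed from WT by the full amount at both windows, and *met-2 set-25* did not exceed the single mutants. The neighbouring window of *slmp-1* had an interaction of -0.004.

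In 2 other blocks *met-2* single mutants stood apart. Across III 11773350-11782199 (8850 bases), 6 windows of *immp-1*, *gbf-1*, *mdt-21*, C24H11.5 and *srd-74* had interactions between -1.11 and -0.86. At *srd-74*, a chemoreceptor gene, normalized counts were 1365, 1227 and 1253 in the *met-2 set-25* libraries, 1450, 1303 and 1438 in *set-25*, 2633, 2524 and 2785 in *met-2* single mutants and 1235, 1363 and 1392 in WT. Each *met-2* library was about double every other library, while *met-2 set-25* overlapped with *set-25* and WT. The interaction was -1.11 ± 0.08 (SE, FDR = 9.3e-16). At *mdt-21*, which encodes a subunit of the Mediator complex, it was -1.102 ± 0.10 (FDR = 5.2e-12), with 888, 875 and 836 in the *met-2 set-25* libraries, 966, 957 and 963 in *set-25*, 1761, 1617 and 1814 in *met-2* single mutants and 971, 820 and 904 in WT. C24H11.5 held 865, 764 and 750 in the *met-2 set-25* libraries, 834, 845 and 817 in *set-25*, 1497, 1631 and 1698 in *met-2* single mutants and 877, 833 and 812 in WT, with an interaction of -1.01 (FDR = 2.4e-10). At *gbf-1*, whose product activates Arf GTPases, the counts were 766, 819 and 827 in the *met-2 set-25* libraries, 767, 798 and 814 in *set-25*, 1487, 1699 and 1573 in *met-2* single mutants and 853, 828 and 823 in WT, with an interaction of -0.91 (FDR = 3.0e-09). The *met-2* single mutants stood apart at each of them, and the effect of *met-2* loss at *gbf-1* was 0.02 in *set-25* muscle and 0.93 in muscle with *set-25*. The next window, *tbx-38*, was not called (-0.14, FDR = 0.25).

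The other block lay on V. The window of Y17D7C.6 held 2483, 2296 and 2427 in the *met-2 set-25* libraries, 3185, 3137 and 3095 in *set-25*, 3876, 3831 and 4002 in *met-2* single mutants and 2578, 2544 and 2643 in WT. Libraries of *met-2* were highest, *set-25* libraries came next, and *met-2 set-25* libraries lay below every WT library. The interaction was -0.98 (FDR = 1.2e-08). Y17D7C.1 had -0.91 (FDR = 1.2e-07). Farther along the chromosome, Y17D7C.2 held 2772, 2600 and 2624 in the *met-2 set-25* libraries, 3318, 3350 and 3589 in *set-25*, 4210, 4101 and 4033 in *met-2* single mutants and 2932, 2806 and 2819 in WT, with an interaction of -0.89 (FDR = 3.3e-07). The genotypes kept the same order there, while Y69H2.9 (-0.11) and Y17D7C.9 (-0.19) were not called.

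Y47H10A.4 on I was the positive locus among the 10, and *met-2 set-25* alone stood apart there and at its neighbour Y47H10A.5. Y47H10A.4 (I 12094547-12096246) held 3995, 4399 and 4087 in the *met-2 set-25* libraries, against 2003, 2004 and 2007 in *set-25*, 2117, 2232 and 1932 in *met-2* single mutants and 2053, 2203 and 1880 in WT. Y47H10A.5 held 3062, 3191 and 3041 in the *met-2 set-25* libraries, against 1802, 1772 and 1869 in *set-25*, 1723, 1816 and 1660 in *met-2* single mutants and 1874, 1720 and 1891 in WT. The 9 libraries of the other genotypes overlapped with each other at both windows and lay far below the *met-2 set-25* libraries. The interactions were 1.02 ± 0.12 (FDR = 3.1e-09) for Y47H10A.4 and 0.85 ± 0.10 (FDR = 5.3e-09) for Y47H10A.5. The *met-2* effect at Y47H10A.4 was 1.05 in *set-25* muscle (FDR = 4.2e-15) and 0.03 in muscle with *set-25* (FDR = 0.99). The adjacent windows Y47H10A.2 (-0.13) and Y47H10A.3 (-0.12) were not called.

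At Y58A7A.3 (V 5081024-5082723) almost all counts came from *set-25* single mutants. Raw counts were 4, 0 and 0 in the *met-2 set-25* libraries, 1496, 1879 and 1686 in *set-25*, 0, 0 and 2 in *met-2* single mutants and 0, 0 and 0 in WT. The counts in *set-25* were at least 381-fold higher than in WT, with a floor of 3 counts in each WT library. The fitted interaction of -13.04 ± 2.61 (FDR = 0.0049) depends on the prior count and is no bound. It was lost without *met-2* replicate 3 (FDR = 1) and with the signal index as a covariate (FDR = 0.19). With that covariate the other 9 large loci, several of them neighbours, kept their calls, Y47H10A.4 with 0.78 (FDR = 4.0e-12). The windows of Y58A7A.4 (0.27) and Y58A7A.5 (0.19) beside it were not called.

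**Figure D2:**
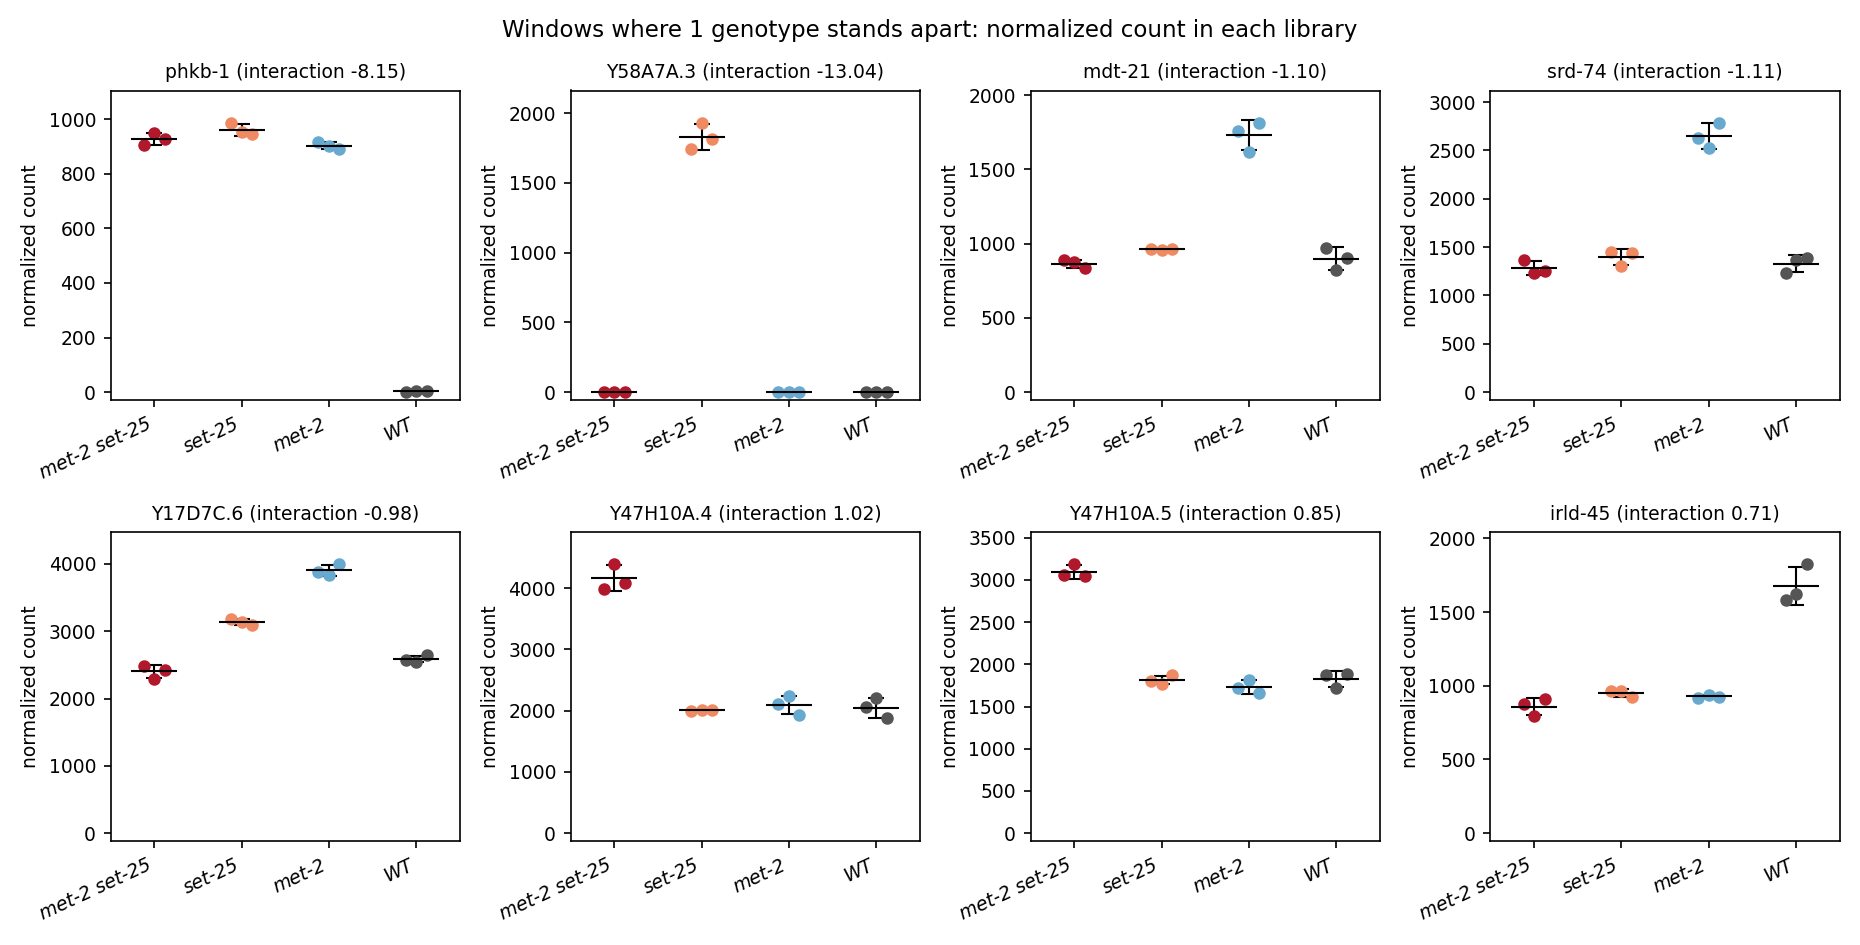
Normalized count (linear axis from near 0) in each library at 8 windows where a genotype stands apart, with points for libraries and a dash with bars for the mean and SD of *met-2 set-25*, *set-25*, *met-2* and WT. WT alone is low at *phkb-1* and high at *irld-45*, *met-2* alone is high at *srd-74* and *mdt-21*, *met-2 set-25* alone is high at Y47H10A.4 and Y47H10A.5, and almost all counts at Y58A7A.3 are in *set-25*.

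Graded positive differences made up 38 windows in 27 loci. Of all 39 positive windows at an FDR below 0.01, *met-2 set-25* had the highest mean at 36 and *set-25* the lowest at 35. The contrast adds *met-2 set-25* and subtracts *set-25*, so this order follows in part from the choice of windows and is no test. B0403.6 on X held 2152, 2353 and 2254 in the *met-2 set-25* libraries, 1451, 1560 and 1579 in *set-25*, 1807, 1750 and 1678 in *met-2* single mutants and 1620, 1871 and 1684 in WT. All *met-2 set-25* libraries exceeded the other 9, and all *set-25* libraries lay below those of *met-2* and WT. The interaction was 0.55 ± 0.08 (FDR = 3.0e-05) and stayed below an FDR of 0.01 without each library in turn, but was 0.38 (FDR = 0.25) with the signal index as a covariate.

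T04C12.16 on V had the same order of genotypes and an interaction of 0.75 (FDR = 2.0e-04). Its normalized counts were 1545, 2114 and 1645 in the *met-2 set-25* libraries, 959, 911 and 1009 in *set-25*, 1297, 1361 and 1023 in *met-2* single mutants and 1071, 1311 and 966 in WT. Only the *met-2 set-25* libraries were separate from all others. The replicate spread alone gave an SE of 0.23 here, against 0.13 from edgeR. The interaction was 0.15 (FDR = 0.96) with the signal index as a covariate.

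At the piRNA locus 21ur-3021 (IV), 4 overlapping windows were called. The one with the smallest p value held 2393, 2883 and 2566 in the *met-2 set-25* libraries, 1661, 1571 and 1721 in *set-25*, 2063, 2019 and 1565 in *met-2* single mutants and 1813, 1974 and 1746 in WT. The *met-2 set-25* libraries were separate from the rest. The interaction was 0.64 (FDR = 1.6e-04), composed of a *met-2* effect of 0.66 in *set-25* muscle and 0.03 in muscle with *set-25*. It was 0.25 (FDR = 0.86) with the signal index as a covariate.

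EGAP1.4 on III (0.51, FDR = 4.2e-04) held 2221, 2393 and 2159 in the *met-2 set-25* libraries, 1650, 1605 and 1584 in *set-25*, 1918, 1975 and 1709 in *met-2* single mutants and 1908, 2018 and 1786 in WT. C45B2.19 on X (0.45, FDR = 1.2e-03) held 1869, 1933 and 1859 in the *met-2 set-25* libraries, 1501, 1558 and 1415 in *set-25*, 1633, 1674 and 1500 in *met-2* single mutants and 1740, 1843 and 1596 in WT. F41G4.10 on X (0.49, FDR = 2.2e-03) held 2316, 2636 and 2345 in the *met-2 set-25* libraries, 1622, 1694 and 1817 in *set-25*, 1906, 1928 and 1773 in *met-2* single mutants and 1781, 1971 and 1777 in WT. Libraries of *met-2 set-25* were the highest at each of these windows. C45B2.19 fell short of the threshold without *set-25* replicate 3, *met-2* replicate 3 or WT replicate 2, and F41G4.10 without *met-2 set-25* replicate 2, *set-25* replicate 1 or 2, or WT replicate 2. All 3 calls were lost with the signal index as a covariate, with 0.29 (FDR = 0.80) at EGAP1.4, 0.27 (FDR = 0.86) at C45B2.19 and 0.27 (FDR = 0.84) at F41G4.10.

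The pattern differed at *irld-45*, a gene of the insulin/EGF-receptor-like domain family on V. It held 873, 794 and 909 in the *met-2 set-25* libraries, 968, 961 and 920 in *set-25*, 918, 938 and 925 in *met-2* single mutants and 1583, 1621 and 1827 in WT. WT alone was high, and the single mutants were as low as *met-2 set-25* or close to it. The interaction was 0.71 ± 0.10 (FDR = 4.8e-06), and 0.83 (FDR = 1.3e-06) with the signal index as a covariate.

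Some other graded positive loci at coding genes are named here after their values were seen. At *cpn-3*, a calponin gene (I), the interaction was 0.54 (FDR = 0.0039), with 2484, 2873 and 2516 in the *met-2 set-25* libraries, 1779, 1701 and 1975 in *set-25*, 2172, 2208 and 1813 in *met-2* single mutants and 2055, 2204 and 1984 in WT. The *met-2 set-25* libraries were highest, and replicate 3 of the *met-2* single mutants lay near *set-25*. The Mediator gene *mdt-22* (0.58, FDR = 0.0077), the syntrophin gene *stn-2* (0.52, FDR = 0.0063) and *dip-2* (0.63, FDR = 0.0049) were also positive. None of these 4 genes was called with the signal index as a covariate, where *cpn-3* had 0.23 (FDR = 0.87), *mdt-22* 0.12 (FDR = 0.96), *stn-2* 0.16 (FDR = 0.95) and *dip-2* 0.19 (FDR = 0.91).

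Among the 37 positive windows with an interaction below 0.8, the spread between the libraries of a window gave a larger SE than edgeR, which shares spread across windows, at 34, with a median ratio of 1.38. Among the 19 windows of absolute 0.8 or more this held at 2, with a median ratio of 0.49. With the signal index as a covariate 3 of the 37 windows, those of *irld-45* and *rrn-2.1*, were called at an FDR below 0.01, and the value was smaller than without it at 35. Very high counts were held by 3 called windows, where the SE from the spread between libraries was over 2 times that of edgeR. At *myo-3*, the myosin heavy chain gene of body-wall muscle whose promoter also drives the sorting reporter, normalized counts were 436682, 487639 and 453042 in the *met-2 set-25* libraries, 349121, 354524 and 352936 in *set-25*, 393462, 407860 and 337607 in *met-2* single mutants and 354204, 397410 and 325021 in WT. The *met-2 set-25* libraries were separate from all others, which overlapped. The interaction was 0.30 (FDR = 3.4e-05), with an SE of 0.047 from edgeR and 0.128 from the replicate spread, and it was -0.02 with the signal index as a covariate. At *rrn-2.1*, a repeated ribosomal RNA gene, counts were 103789, 132398 and 109015 in the *met-2 set-25* libraries, 94582, 94967 and 95191 in *set-25*, 96963, 104986 and 78004 in *met-2* single mutants and 119135, 133253 and 107191 in WT. Libraries of *met-2 set-25* and WT overlapped and lay mostly above the single mutants, with an interaction of 0.64 (FDR = 3.5e-09) and SEs of 0.072 from edgeR and 0.190 from the replicate spread. The covariate of signal index gave 0.15 (FDR = 5.7e-05). The remaining window, K12F2.4, overlaps that of *myo-3* and had 0.37, with SEs of 0.059 and 0.160, and -0.03 with the signal index.

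Graded negative loci at an FDR below 0.01 were Y17D7C.2 and 3 piRNA loci on IV. At 21ur-10978 normalized counts were 497, 485 and 499 in the *met-2 set-25* libraries, 638, 675 and 610 in *set-25*, 577, 586 and 674 in *met-2* single mutants and 549, 507 and 520 in WT. Libraries of *met-2 set-25* were lowest and those of both single mutants exceeded WT. The interaction was -0.60 (FDR = 1.3e-03), and the call was lost without *set-25* replicate 2 or *met-2* replicate 3. The values were -0.48 (FDR = 7.2e-03) at 21ur-7449 and -0.45 (FDR = 8.3e-03) at 21ur-1343, calls lost without 7 and 8 of the 12 libraries in turn. All 3 piRNA calls were lost with the signal index as a covariate, with -0.44 (FDR = 0.80) at 21ur-10978, -0.35 (FDR = 0.80) at 21ur-7449 and -0.31 (FDR = 0.86) at 21ur-1343.

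**Figure D3:**
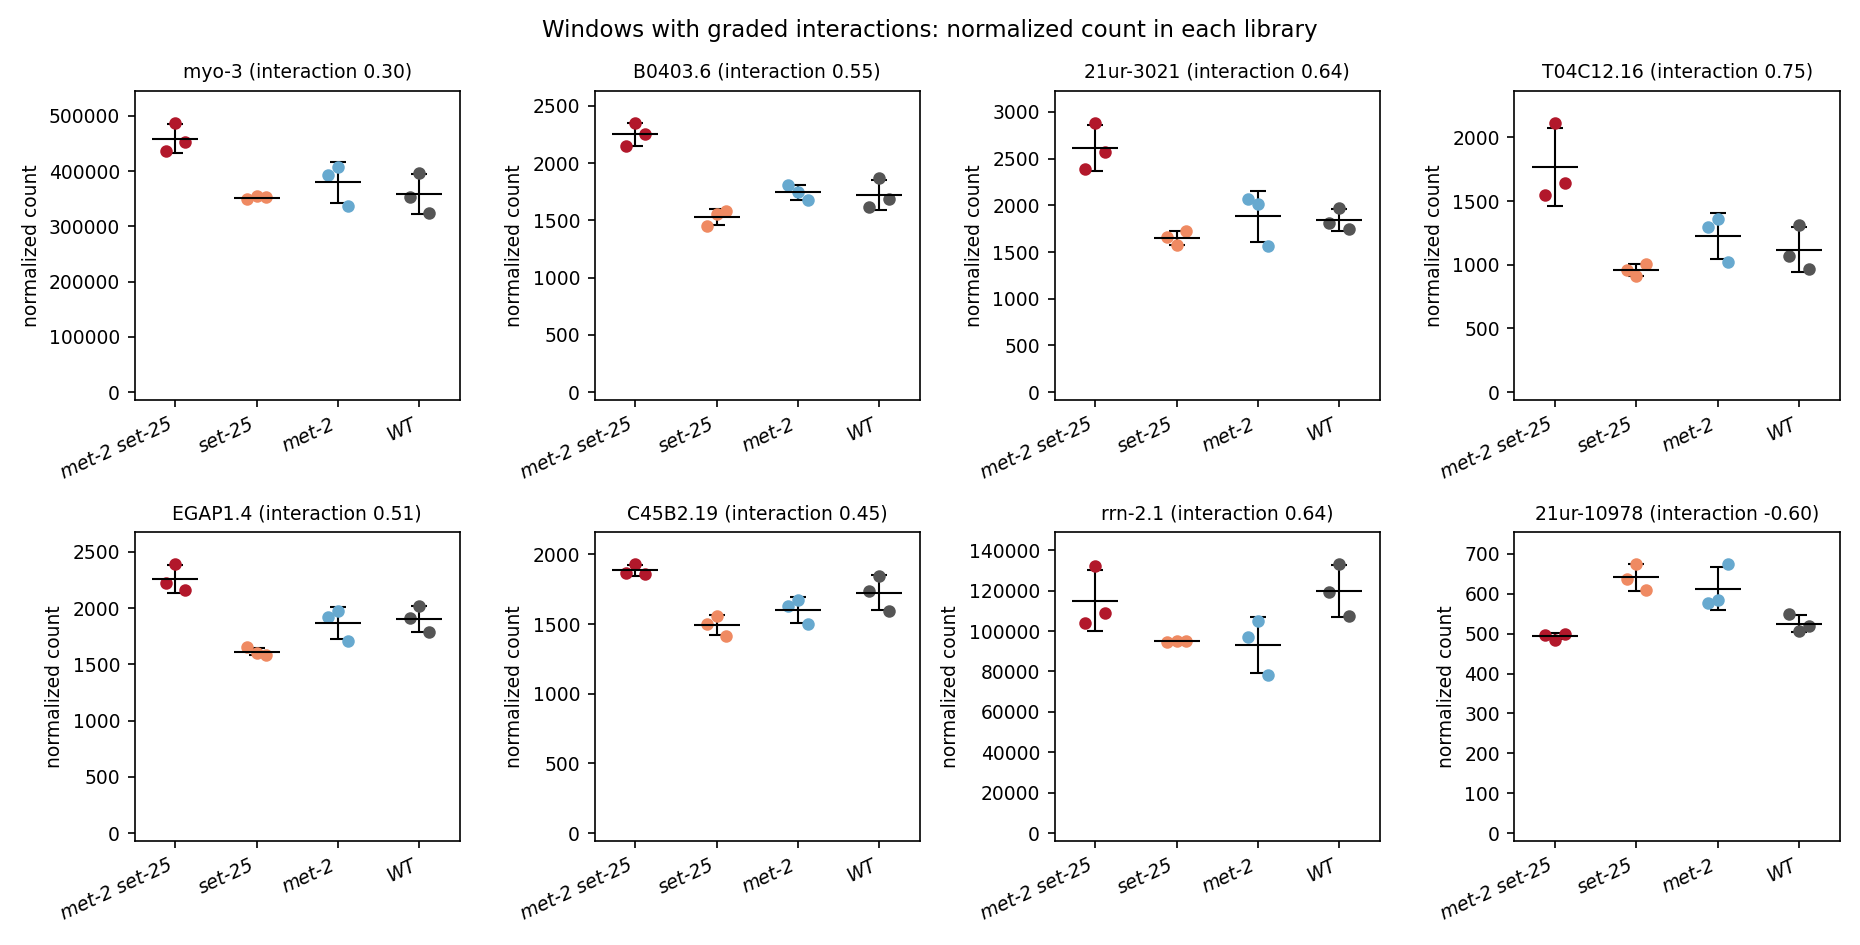
Normalized count (linear axis from near 0) in each library at 8 windows with graded interactions, with points for libraries and a dash with bars for the mean and SD of *met-2 set-25*, *set-25*, *met-2* and WT. At B0403.6 the *met-2 set-25* libraries lie between 2152 and 2353 and the *set-25* libraries between 1451 and 1579, whereas at 21ur-10978 the *met-2 set-25* libraries are lowest.

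Over the wider set, *met-2 set-25* lay high and *set-25* low at positive windows. At the 1125 positive windows, loss of *met-2* had a median effect of 0.40 in *set-25* muscle and 0.01 in muscle with *set-25*. Loss of *set-25* had a median effect of 0.27 in *met-2* muscle and -0.13 in muscle with *met-2*, and the last was below 0 at 1124 of 1125 windows. Over all windows these medians were -0.06, -0.0004, -0.04 and 0.007. The windows were chosen by the same contrast, so these values describe them and are no test.

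By library, the median log2 level over the window's mean at the positive windows was 0.17, 0.35 and 0.20 in the *met-2 set-25* libraries, -0.19, -0.16 and -0.15 in *set-25*, 0.02, 0.06 and -0.17 in *met-2* single mutants and -0.08, 0.07 and -0.12 in WT. Replicate 2 of *met-2 set-25* was highest, and *met-2* replicate 3 and WT replicate 3 lay near the *set-25* libraries. At the 537 negative windows the values were -0.10, -0.18 and -0.11 in the *met-2 set-25* libraries, 0.11, 0.11 and 0.13 in *set-25*, 0.04, 0.01 and 0.12 in *met-2* single mutants and -0.02, -0.08 and -0.03 in WT. There the *set-25* libraries were among the highest and the *met-2 set-25* libraries lowest.

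The genotype standing apart was taken as the one without which the other 3 genotype means lay closest together. Among the 39 positive windows at an FDR below 0.01 it was *met-2 set-25* at 35, *set-25* at 1, *met-2* at 0 and WT at 3. Among the 20 negative windows it was *met-2 set-25* at 1, *set-25* at 3, *met-2* at 11 and WT at 5. The 11 and 5 windows lie at the neighbouring loci on III, V and IV described above. Of all 50716 tested windows it was *met-2 set-25* at 25946, *set-25* at 11928, *met-2* at 5114 and WT at 7728. All 3 *met-2 set-25* libraries lay above the other 9 at 35 of the 39 positive windows and at 781 of the 1125, while 5.65% of all tested windows (2867) had that arrangement. They lay below the other 9 at 143 of the 537 negative windows, and 5.62% of all windows (2848) had that arrangement. The called windows were chosen by a contrast that includes *met-2 set-25*, so these counts describe them and are no test.

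The interaction followed the level of a window. That level is the mean over all 12 libraries, so a high *met-2 set-25* count raises both the level and the interaction. Middle deciles are narrow (decile 6 spans 1501 to 1568), so the trend and the comparisons within deciles below are in part built in. The median was -0.11 in the lowest decile of mean normalized count (up to 1149), -0.14 in the next and 0.22 in the highest (from 1886 up). The highest decile held 772 of the 1125 positive windows (15.2% of its windows) and 5 negative ones, and the lowest 5 deciles held 445 of the 537 negative windows. With the signal index as a covariate the median was 0.004 in the highest decile and -0.007 in the lowest, and 11 positive and 16 negative windows were called at an FDR below 0.05. All 2203 windows that make up the index lie in the highest decile, so the covariate takes out the difference there in part by construction.

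**Figure D4:**
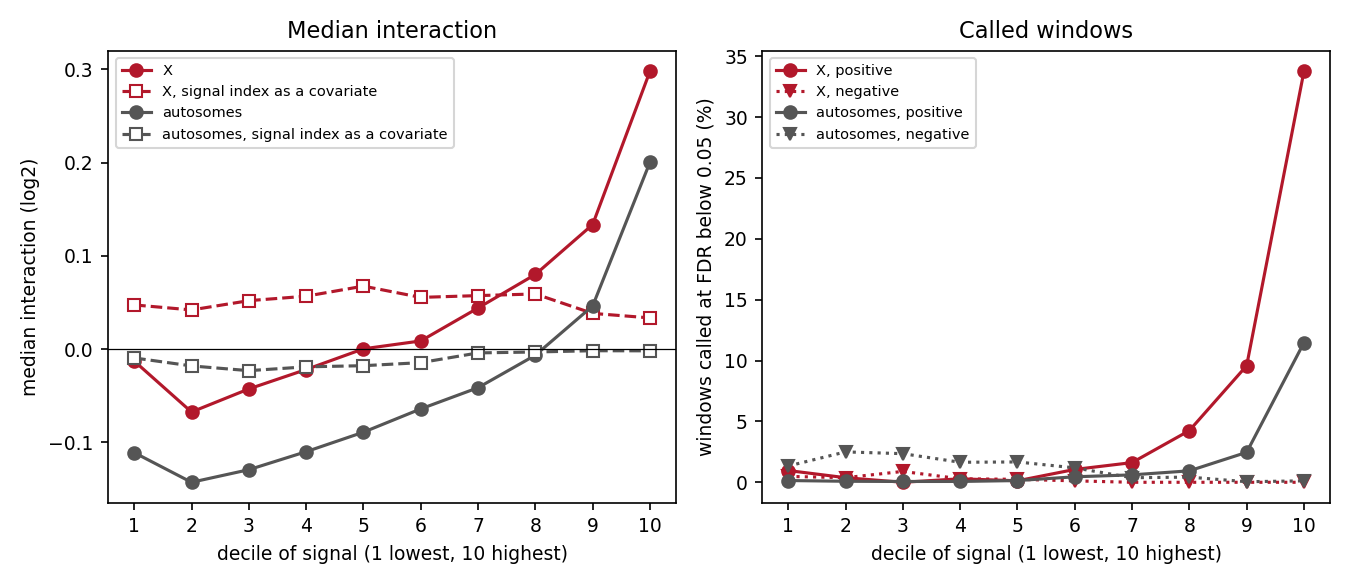
Left, median interaction (log2) in each decile of mean normalized count for X and autosomes, without (circles) and with (squares) the signal index as a covariate. In the highest decile the median is 0.30 on X and 0.20 on autosomes without the index, and with it the medians lie between 0.034 and 0.068 on X and between -0.023 and -0.002 on autosomes. Right, percent of windows called at an FDR below 0.05 in each decile, where positive calls reach 33.8% on X and 11.5% on autosomes.

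**Figure D5:**
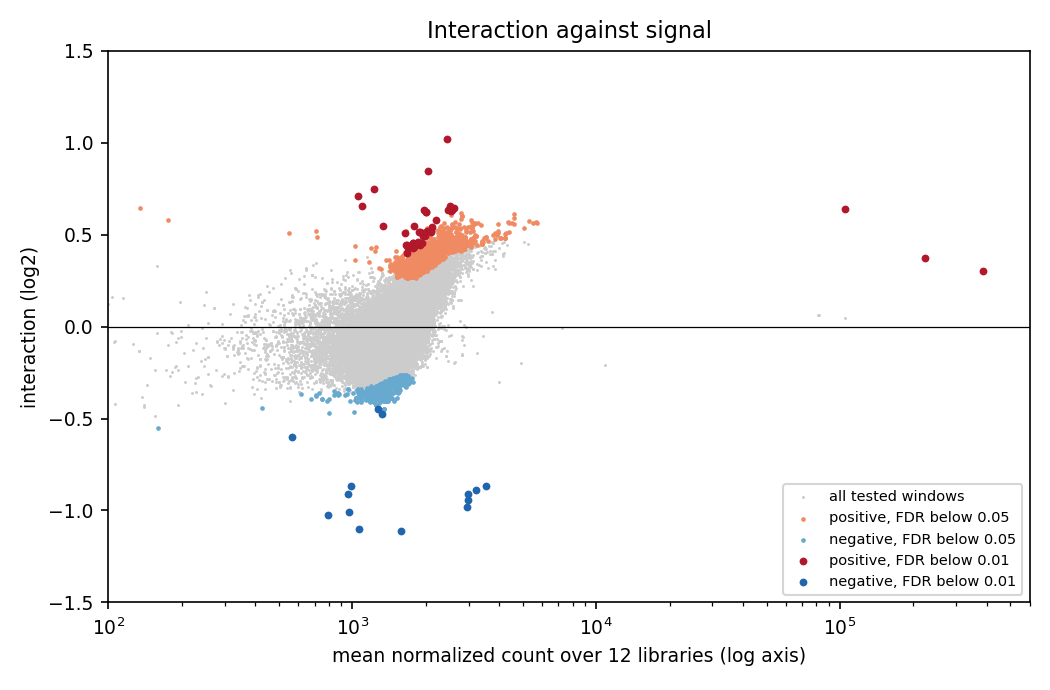
Interaction (log2) of tested windows against their mean normalized count over 12 libraries (log axis), with called windows coloured by sign and FDR. A band turns from below 0 at low counts to above 0 at high counts, and 47 windows, 6 of them called at an FDR below 0.01 (those of *phkb-1*, Y67D8A.10 and Y58A7A.3), lie outside the axes.

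The share of positive calls was also taken by chromosome, as a description without a test. On X, 428 of 6686 windows (6.40%) were positive and 12 (0.18%) negative at an FDR below 0.05, with a median of 0.04. On autosomes, 697 of 44030 (1.58%) were positive and 525 (1.19%) negative, with a median of -0.06. The median of X exceeded that of autosomes in each of the 10 deciles of level. In the highest decile, 288 of 853 windows on X (33.8%) and 484 of 4219 on autosomes (11.5%) were positive. With TMM factors the medians were 0.08 on X and -0.02 on autosomes, and with the signal index 0.05 and -0.01. With the index 3 windows on X and 8 on autosomes were called positive. Of 18 bins of 1 Mb along X, 17 had a median above 0.

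Autosomal arms held 294 positive (0.99%) and 422 negative (1.42%) of 29727 windows, with a median of -0.08. Shares on arms and in centres are not matched for the level of a window, which the calls follow. The median normalized count was 1413 on arms and 1613 in centres, and 16782 of the arm windows lie on IV. Autosomal centres held 403 positive (2.82%) and 103 negative (0.72%) of 14303, with a median of -0.01, which was 0.03 with TMM factors and 0.005 with the signal index. For arms the median was -0.04 with TMM factors and -0.02 with the index, and with the index 6 positive and 16 negative arm windows and 2 positive centre windows were called. The arms of IV, which are rich in piRNA genes, held 290 negative windows of 16782 (1.73%), a count that was 165 with TMM factors and 5 with the index. The centre of IV had 0.28% negative, and on V the arms had 1.48% and the centre 0.40%. On I, II and III the negative share was no higher on arms (0.666, 0.658 and 0.660%) than in centres (0.672, 1.25 and 0.883%).

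By biotype, piRNA windows had a median of -0.13, with 77 of 13315 (0.578%) positive and 275 (2.07%) negative. With the signal index the median was -0.02 and none was called at an FDR below 0.05. Of these windows 10469 lie in deciles 1 to 5 of level, where their median was -0.15 and 2.38% were negative, against -0.08 and 1.43% for 11582 protein-coding windows of the same deciles. Windows of ncRNA genes had 357 of 7068 (5.05%) positive and 23 negative, with a median of 0.01, and with the index 5 were positive and 1 negative. In the highest decile 19.03% of 1319 ncRNA windows and 13.7% of 2929 protein-coding windows were positive. Protein-coding windows had 591 of 27268 positive and 219 negative, with a median of -0.02 that was 0.01 with TMM factors and 0.001 with the signal index.

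Among gene lists, the background was 1 window for each of 40494 named genes, of which 839 (2.07%) were positive and 471 (1.16%) negative at an FDR below 0.05, with a median of -0.06. Of 16 body-wall muscle genes, 6 were positive and none negative, with a median of 0.29. Of these 16, 14 lie in the highest decile of level, where 15.2% of all windows were positive and the median was 0.22, and the others lie in deciles 8 and 9. The positive members were *myo-3*, *dim-1* (0.53, FDR = 0.026), *unc-27*, a troponin I gene (0.43, FDR = 0.037), *ttn-1*, titin (0.41, FDR = 0.041), *hlh-1*, the MyoD homologue (0.35, FDR = 0.048), and *unc-89*, obscurin (0.44, FDR = 0.048). At *dim-1*, which encodes a muscle protein with immunoglobulin domains, normalized counts were 3364, 4059 and 3665 in the *met-2 set-25* libraries, 2223, 2351 and 2433 in *set-25*, 3024, 2997 and 2224 in *met-2* single mutants and 2335, 3022 and 2179 in WT. The *met-2* and WT replicates themselves spread widely, and *met-2 set-25* exceeded all of them. Each of the 5 called members other than *myo-3* missed an FDR of 0.05 without *met-2 set-25* replicate 2, without any one of the *set-25* replicates, without *met-2* replicate 3 or without WT replicate 2 (up to 0.14 at *dim-1* and 0.20 at *ttn-1*), and the count of positive members was between 1 and 9 over the 12 fits. The myosin gene *unc-54* had 0.29 (FDR = 0.14) and the troponin I gene *tni-3* had -0.01.

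Summed over the 15 muscle genes other than *myo-3*, normalized counts lay between 37251 and 43268 in the *met-2 set-25* libraries, 30010 and 31076 in *set-25*, 29692 and 35457 in *met-2* single mutants and 29636 and 35084 in WT. The signal index is high in the same *met-2 set-25* libraries. With it as a covariate the list's median was -0.02 and no member was called. Lists of other cell types had medians below 0, and of their members 1, a pharynx gene, lies in the highest decile of level. Neurons had 1 negative of 11 (*ida-1*, -0.31, FDR = 0.028, a dense-core vesicle gene, -0.20 and FDR = 0.95 with the index, and between 0.05 and 0.13 without *met-2 set-25* replicate 2, *set-25* replicate 1 or 3, *met-2* replicate 3 or WT replicate 2), and intestine (10 genes, -0.09), hypodermis (10, -0.08), pharynx (7, -0.02, but 0.01 with TMM factors) and germline (14, -0.11, but 0.02 with the signal index) had no call.

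None of 20 genes of the H3K9 methylation machinery and its readers was called at an FDR below 0.05 (median 0.05). The smallest p values were those of *jmjd-1.2*, a demethylase gene (0.34, FDR = 0.056), and *cec-4*, whose product anchors H3K9-methylated chromatin at the envelope (0.26, FDR = 0.087). Of 10 genes of the nuclear envelope none was called (median 0.06), with 0.32 (FDR = 0.073) at *unc-84*, a SUN-domain gene. Of 14 genes of chromatin remodelling 1 was called, *swsn-1*, a SWI/SNF subunit (0.32, FDR = 0.037), and *chd-7* had 0.41 (FDR = 0.080). Leaving out any of the 6 libraries named for the muscle genes also ended the call at *swsn-1* (FDR up to 0.18). With the index it had 0.02 (FDR = 1), no member was called, and the median of the list was 0.03, against 0.20 without it.

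Of 17 transcription factors that the study names, *nhr-25* for an enhancer near it and the others for their motifs, none was called (median -0.02, but 0.02 with TMM factors). None of the genes that the study named for derepression was called either, and both lists were drawn from genes the study names, mostly from its own data. Derepression was judged mainly from RNA in the study. It reports that most derepressed genes gained no promoter accessibility in *met-2 set-25* muscle, while a smaller group did. That was judged against WT and is another quantity than the interaction, which is also near 0 where the effects of both losses add up. The interaction was -0.08 (FDR = 0.59) at *pgl-1*, a P-granule gene, -0.30 (FDR = 0.062) at *pals-29*, -0.24 (FDR = 0.14) at *pals-30* and -0.25 (FDR = 0.081) at *sri-62*. At *pals-29* normalized counts were 1234, 1109 and 1201 in the *met-2 set-25* libraries, 1315, 1359 and 1339 in *set-25*, 1373, 1229 and 1440 in *met-2* single mutants and 1232, 1159 and 1321 in WT. The genotypes overlapped except that *met-2 set-25* lay below *set-25*.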

How the data were processed

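Sorted muscle cells of 4 genotypes gave 3 ATAC-seq libraries each, which were grouped by the genotype in the labels. Fewer independent replicates than these 3 are given by the labelled growth protocol, so p-values may measure technical spread. The authors deposited raw counts per window. They trimmed the reads with cutadapt, aligned them to ce10 with bowtie2, removed duplicates with Picard, split pairs with bedtools 2.26, shifted reads for the Tn5 offset and counted them on either strand with QuasR. Overlapping, antisense and repeated genes can share counts, and among the 50716 windows there were 48421 distinct sets of counts.

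Counts were scaled by column totals over all 51519 windows, and 238 windows without any count were dropped. One edgeR 4.0.16 fit (R 4.3.3, glmQLFit and glmQLFTest, two-sided) covered 51281 windows in 12 libraries, with Benjamini-Hochberg adjustment over all of them. Windows that combine several intervals (565 tested) are not reported. A normalized count is a window's share of its column total, times the mean of the 12 totals, and log2 levels used a pseudocount of 8. The SE is the log2 value divided by the root of F, and the SE from replicate spread uses the libraries of that window alone. The signal index leaves out the 10 windows with the most counts. Names came from RefSeq (WBcel235) through transcript identifiers, which matched 48631 windows (95.9%). The window of *baf-1* was not analysed here.

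Named windows were every merged locus with an absolute interaction of 0.9 or more, the 10 positive graded loci with the smallest p, the 4 negative graded loci found (up to 6 were allowed), genes the study names and the 2 members of each list with the smallest p. The contrast, members and lists were chosen with earlier results of these data known. Alternatives were DESeq2 1.42.0, TMM factors, filterByExpr, the likelihood ratio test of edgeR, windows of 1700 bases only, distinct sets of counts, a replicate block, the signal index as a covariate and each library left out in turn. Procedures were tested on simulated data. Summaries were made in Python 3.11.15 (matplotlib 3.10.9, scipy 1.17.1, numpy 2.4.6 and pandas 2.3.3). Counting intervals cover counting error only.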

Additional observations from a re-analysis of the deposited data

Results flagged for a closer look

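The effect of *met-2* loss differed between muscle without and with *set-25*, by the interaction term of edgeR's quasi-likelihood fit at an FDR below 0.01, at 39 windows with a positive and 20 with a negative interaction. Among the named windows the negative values were -8.15 at *phkb-1*, -2.14 at Y67D8A.10, -1.11 at *srd-74*, -1.102 at *mdt-21*, -1.01 at C24H11.5, -0.91 at *gbf-1*, -0.98 at Y17D7C.6, -0.91 at Y17D7C.1 and -0.89 at Y17D7C.2. At Y58A7A.3, where 3 of the 4 genotypes were near 0, the fitted value was -13.04. The piRNA loci 21ur-10978, 21ur-7449 and 21ur-1343 had -0.60, -0.48 and -0.45.

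Positive values were 1.02 at Y47H10A.4, 0.85 at Y47H10A.5, 0.75 at T04C12.16, 0.71 at *irld-45*, 0.64 at *rrn-2.1*, 0.64 at 21ur-3021, 0.55 at B0403.6, 0.51 at EGAP1.4, 0.49 at F41G4.10, 0.45 at C45B2.19 and 0.30 at *myo-3*.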

How the results depend on the processing

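Counts of windows called at an FDR below 0.01 were 39 positive and 20 negative. They were 823 and 12 with DESeq2, 303 and 100 with edgeR's likelihood ratio test, 1117 and 264 with the replicate block, 1572 and 123 with the block and TMM factors, and 64 positive with windows of 1700 bases only. The signal index as a covariate gave 6 positive. At an FDR below 0.05, 1125 and 537 became 3537 and 55 with DESeq2 (35792 windows had no adjusted p), 1822 and 1198 with the likelihood ratio test, 2832 and 1935 with the block, 3769 and 888 with the block and TMM factors, and 11 and 16 with the signal index. TMM factors alone gave 287 negative. Leaving out each library gave 13 to 444 positive and 16 to 72 negative at 0.01, and 29 to 2151 positive and 23 to 1290 negative at 0.05. The median over all windows was -0.0071 with TMM factors, -0.0072 with the block and TMM factors and -0.0027 with the signal index. Filtering low counts and keeping distinct sets of counts left every count within 1.5 times. The labels do not say that a replicate number marks a shared batch. Of 18 same-numbered pairs 6 correlated above 0.1 (-0.158 to 0.399, mean 0.091, against -0.046 for other pairs), and 7 of 12 libraries correlated best with their own number, a hint from the data. These 6 pairs lay among replicates 2 and 3 of *met-2 set-25*, *met-2* and WT, while the highest pair of unlike numbers reached 0.319. The methods count replicas by experiment for each condition but name no batch. The main fit took no account of a pairing. The direction turned with the signal index at *myo-3* (-0.017), *pgl-1* (0.073), *dim-1* (-0.006), *lmn-1* (-0.010), *nhr-48* (-0.039), *chd-7* (-0.166) and *clec-115* (-0.010). At *met-2* it turned with TMM factors (0.014), DESeq2 (0.020), the block and TMM factors (0.015) and the signal index (0.114), and ranged between -0.073 and 0.016 without each library. The cause was not tested. Windows with few counts, such as Y58A7A.3, limit the fitted values.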

Other observations

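Several gene families outside the comparisons above held called windows at an FDR below 0.05, against 2.07% positive and 1.16% negative over all named genes. These shares are not matched for the level of a window, which the calls follow. Of 249 miRNA genes, 16 were positive and 2 negative. At *mir-67* (0.56, FDR = 0.011), normalized counts were 2861, 3370 and 2802 in the *met-2 set-25* libraries, 1941, 2137 and 2025 in *set-25*, 2297, 2652 and 2024 in *met-2* single mutants and 2189, 2598 and 2164 in WT, so that *met-2 set-25* was highest in all libraries. At *mir-4929* the interaction was 0.51 (FDR = 2.9e-03). With the signal index as a covariate no miRNA gene was called, and *mir-67* had 0.16 (FDR = 0.95) and *mir-4929* 0.10 (FDR = 0.97). Of 22 heat-shock genes, *hsp-16.1* (0.51, FDR = 0.022) and *hsp-25* (0.38, FDR = 0.020) were positive. The highest decile of level, where 15.2% of all windows were positive, holds 7 of the 22, while *hsp-25* lies in decile 9 and *hsp-16.1* in decile 1. Leaving out *met-2 set-25* replicate 2, *met-2* replicate 3 or WT replicate 2 ended both calls (up to 0.11 and 0.13). Of 170 linc genes 5 were positive, and of 72 ribosomal protein genes 3, including *rps-5* (0.30, FDR = 0.042). None of these heat-shock, linc and ribosomal protein genes was called with the signal index. The call at *mir-67* was lost without *met-2 set-25* replicate 2, *set-25* replicate 1 or WT replicate 2 (FDR up to 0.069). That at *rps-5* was lost in 7 of the 12 fits without 1 library (up to 0.17), those without *met-2 set-25* replicate 2, any *set-25* replicate, *met-2* replicate 3 or WT replicate 1 or 2.

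Of 1279 chemoreceptor genes, whose products are known from sensory neurons, 36 were negative (2.8%), including *srd-74* in the block on III, and 2 positive, with a median of -0.12. Their median normalized count in WT was 1450. Over all windows in deciles 4 and 5 of level (1365 to 1501), 1.46 and 1.44% were negative, with medians of -0.10 and -0.07. The negative count was 16 with TMM factors and 1 with the signal index, with medians of -0.08 and -0.04. Of 70 math and bath genes 2 were negative, including *math-8* (-0.39, FDR = 0.012), and none with the signal index (*math-8* -0.33, FDR = 0.75, and up to 0.063 without *met-2 set-25* replicate 2 or WT replicate 2). At *math-8* normalized counts were 1386, 1306 and 1356 in the *met-2 set-25* libraries, 1632, 1667 and 1583 in *set-25*, 1541, 1474 and 1479 in *met-2* single mutants and 1501, 1309 and 1345 in WT. Libraries of *set-25* were highest and those of *met-2 set-25* overlapped with WT. No window was called among 150 collagen, 36 histone, 233 clec, 38 pals, 67 ugt and 31 msp genes.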
